A study of Drosophila melanogaster with 4 samples.

Results

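The loci 38C, 20A and flamenco are source loci of piRNAs, and they were followed here by H3K9me3 chromatin immunoprecipitation sequencing in whole Drosophila melanogaster embryos. They were taken by position on FlyBase release 5, with no use of the measured values. 38C lies on arm 2L in a lower piece (positions 20104255 to 20116385) and an upper piece (20148259 to 20227581). 20A lies on arm X at 21392175 to 21431907 and flamenco on arm X at 21501149 to 21684449. Cut into consecutive windows of 1 kb, they gave 317 windows (93 for 38C, 40 for 20A and 184 for flamenco) of the 139719 windows of all sequences with clusters. The last window of each of the 4 pieces is shorter than 1 kb. The 50 kb on each side served as the comparison. On X, 20A and flamenco are 69.2 kb apart, so 30.8 kb of flank belongs to both.

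All embryos were wild type, of the strain Oregon-R-modENCODE, staged at 14 to 16 h. The labels name 2 libraries precipitated with an H3K9me3 antibody and 2 input libraries. For each precipitated library the authors called enriched clusters, and they called a series-wide list besides. The labels do not say whether the libraries came from separate embryo collections, so the spread between them may be technical. Depth is unknown, since the lists hold positions and a score and no read counts. A base outside every cluster is one where the authors called no enrichment, which is not the same as an absence of the mark. In whole embryos, a mark in few cells and a weak mark in many cells cannot be told apart.

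piRNAs are small RNAs that guide Piwi proteins to transposon transcripts, and they are cut from long precursor transcripts of loci rich in transposon remnants. 38C is known as a germline locus read from both strands, whereas 20A and flamenco are read mainly from one strand. flamenco acts in the somatic cells of the ovary, where it restrains retroelements of the gypsy family. H3K9me3 is the histone mark of constitutive heterochromatin, and in the germline it recruits the protein Rhino to piRNA loci that are read from both strands. In the RefSeq gene table, which is on release 6 and was used for names and order only, the nearest protein-coding gene on the low-coordinate side of flamenco is DIP1. The flamenco transcript is known to start near DIP1 and to run towards higher coordinates, which on X is towards the centromere.

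The first question was whether the loci carried more H3K9me3 clusters than the 50 kb on each side of them. All 3 did. 38C was covered by clusters over 62.0% of its bases in replicate 1 and 61.0% in replicate 2, against 9.24% and 8.92% of its flanks. flamenco was covered over 60.9% and 57.2%, against 9.62% and 9.35% of its flanks. 20A was covered less widely, over 28.9% and 31.7%, against 7.28% and 5.23% of its flanks. In both libraries each locus lay above each of its own flanks, and the values of loci and flanks did not overlap. All bases of loci and flanks were counted, since unsequenced gaps and the treatment of reads that align to several places were not known. Their part in these shares was not tested.

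The difference between locus and flanks was 52.4 percentage points ± 0.422 for 38C (SD, n = 2 libraries), 49.6 points ± 2.37 for flamenco and 24.0 points ± 3.36 for 20A. Each difference exceeded the SD between the libraries. An exact two-sided permutation test over 2 libraries cannot give a p below 0.5, and it gave p = 0.5 for each of the 6 comparisons made, unadjusted and after Benjamini-Hochberg adjustment over the 6. Against 20A, flamenco was higher by 28.8 points ± 4.48 and 38C by 31.2 points ± 2.57. 38C and flamenco differed by 2.44 points ± 1.91, little more than the spread, at 1.09 points in replicate 1 and 3.79 in replicate 2. With only clusters at or above the median score of the list the order of these loci turned, and the difference of 38C minus flamenco was -10.1 points.

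**Figure D1:**
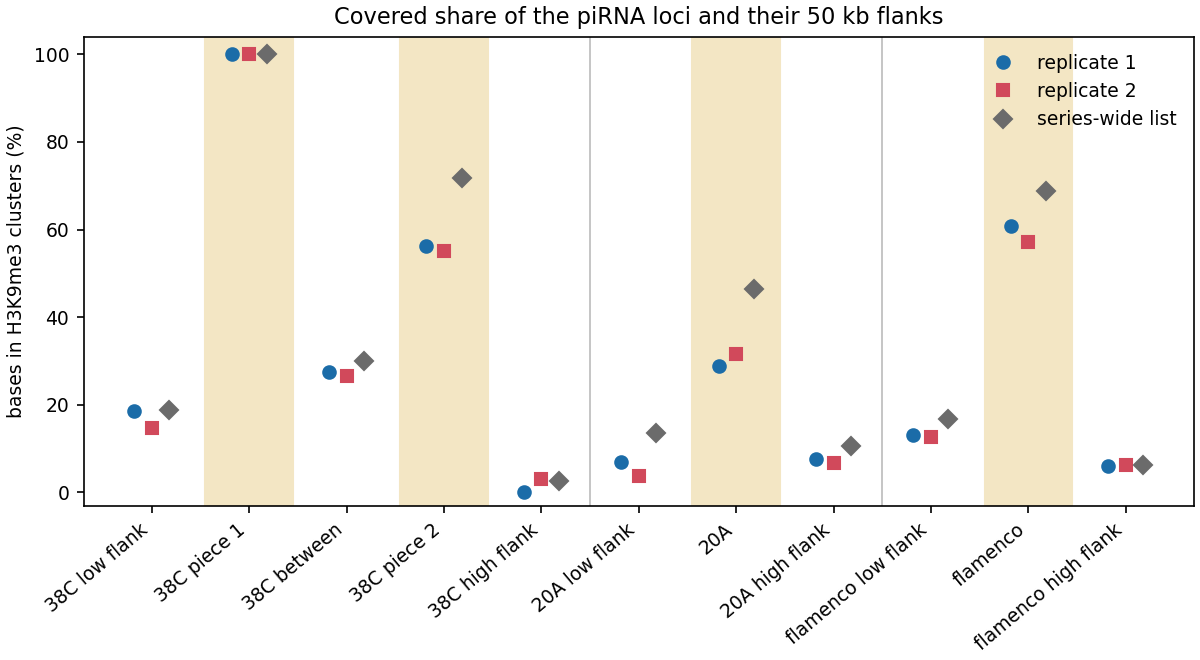
Percentage of bases in H3K9me3 clusters (vertical axis) for each piece of the loci (shaded), the stretch between the pieces of 38C and each 50 kb flank; circles stand for replicate 1, squares for replicate 2 and diamonds for the series-wide list. The lower piece of 38C sits at 100% in all lists and every flank below 20%.

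Counted by windows, 59 of the 93 windows of 38C were covered over at least 50% of their length in replicate 1 and 57 in replicate 2. On the whole of arm 2L, 5.54% of windows reached that level in replicate 1 and 5.35% in replicate 2. In flamenco the counts were 115 and 106 of 184 windows, and in 20A 12 and 13 of 40. On the whole of arm X, 7.38% and 6.86% of windows did so. The series-wide list gave 70 windows of 38C against 7.16% of arm 2L, and 130 windows of flamenco and 18 of 20A against 9.99% of arm X. The loci therefore stood above the share of their whole arm in each list.

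The loci lie in the part of their arms that faces the centromere, where clusters are denser than on the rest of the arm. The upper end of flamenco is 0.738 Mb from the end of the X arm sequence, that of 20A 0.991 Mb and that of 38C 2.78 Mb from the end of 2L. Within the last 3 Mb of 2L, 26.9% of windows were covered over at least 50% in each library, against 63.4% and 61.3% of those in 38C. Within the last 3 Mb of X the shares were 13.7% and 12.4%, against 62.5% and 57.6% in flamenco and 30.0% and 32.5% in 20A. The flanks lay below these regional shares, at 10.0% of windows in each library for 38C, 10.0% and 8.00% for flamenco and 7.00% and 6.00% for 20A.

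Most windows were either fully covered or empty. The shortest cluster in either library is 1301 bp, longer than a window, which favours full or empty windows at any place. The share of such windows over the whole arms is not given here, so the counts describe the loci only. In flamenco 89 of 184 windows were covered over their whole length in both libraries and 57 held no covered base in either. In 38C these counts were 47 and 27 of 93, and in 20A 8 and 24 of 40. In each locus the remaining windows, 38 in flamenco, 19 in 38C and 8 in 20A, were covered in part or in 1 library.

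**Figure D2:**
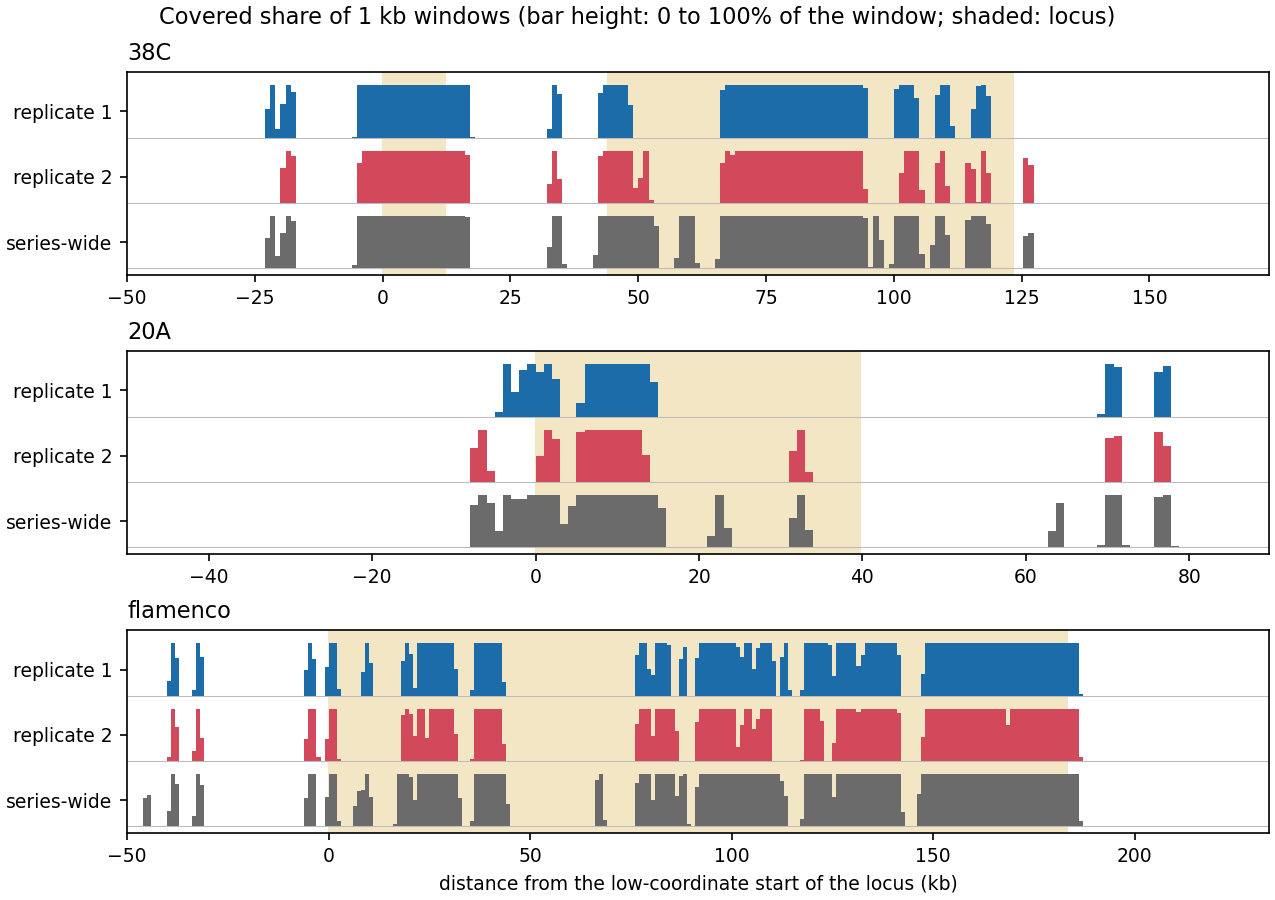
Covered share of each 1 kb window (bar height, from 0 to 100% of the window) against the distance in kb from the low-coordinate start of the locus, for replicate 1, replicate 2 and the series-wide list; shading marks the locus and the rest are flanks and, for 38C, the stretch between its pieces. Coverage of flamenco is broken by a block of 32.9 kb without clusters in either library, and that of 20A ends at about 14.7 kb in replicate 1.

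flamenco was covered unevenly along its length. The lower 91.7 kb, on the side of DIP1, was covered to 36.4% in replicate 1 and 34.7% in replicate 2, and the upper 91.7 kb to 85.4% and 79.8%. The upper part exceeded the lower by 47.1 points ± 2.72 (SD, n = 2). Divided into 10 bins of 18.3 kb, the first, at the known start of the transcript, was covered to 22.9% and 12.2%. The second reached 70.2% and 69.4% and the third 36.1% and 36.4%. The fourth held no cluster in either library. From the fifth on, the share was 52.6% and 55.4%, then 95.1% and 91.1%, then 67.0% and 40.7%. The last 3 bins were covered to 69.9% and 73.9%, to 94.8% and 95.1% and to 100.0% and 98.3%. Coverage was therefore widest at the centromere-facing end, but it did not rise steadily, and the seventh bin was the one on which the libraries differed most.

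The longest stretch of flamenco without a cluster in either library ran from 21544480 to 21577369, over 32.9 kb. The series-wide list placed 1 cluster inside it, at 21567266 to 21569270, and left 21.7 kb free of clusters in all 3 lists. Next in length came 7.50 kb at 21511775 to 21519275 and 6.43 kb at 21503274 to 21509701, both in the first bin. The files give neither unsequenced gaps nor the treatment of reads that align to several places, and their part in these stretches was not tested. The longest stretch covered in both libraries was 20.4 kb at 21648736 to 21669176, followed by 15.0 kb at 21669480 to 21684449.

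Within the 50 kb flank, the boundary of coverage at the upper end of flamenco was close to the boundary of the locus. The last 10 kb inside were covered to 100% in both libraries. The last cluster ran 3024 bp past the locus in replicate 1 and 3077 bp in replicate 2, and beyond it 46.9 kb of flank held no cluster in any list. That stretch ends only at the limit of the 50 kb flank. With flanks of 100 kb on each side, flank coverage of flamenco was 20.8%, against 9.49% with 50 kb. Bases of 20A were left out of the wider flank, so its low-coordinate side held 69.2 kb. On that side the bases beyond 50 kb held no cluster in either library. Clusters therefore resumed on the high-coordinate side beyond the 50 kb flank, and the step holds for the nearer 50 kb only. At the lower end there was no such step, with 28.0% ± 10.9 of the first 10 kb inside covered and 28.3% ± 1.09 of the 10 kb outside (SD, n = 2). The cluster nearest the start crosses it, reaching from 555 bp outside to 2125 bp inside in replicate 1 and from 427 bp outside to 2035 bp inside in replicate 2.

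Coverage of 20A was concentrated at its low-coordinate end. The lower 19.9 kb was covered to 57.9% in replicate 1 and 54.4% in replicate 2, and the upper 19.9 kb to 0% and 8.95%. The upper part lay below the lower by a mean of -51.6 points ± 8.83 (SD, n = 2), which is the opposite direction to flamenco. A single cluster held most of this coverage, 8914 of 11501 covered bp in replicate 1 and 8477 of 12577 in replicate 2. It ran from 21397919 to 21406832 in replicate 1 (score 2.92) and from 21397218 to 21405694 in replicate 2 (score 2.95). By score it ranked 11 among the 581 clusters of arm X in replicate 1 and 9 among the 549 in replicate 2. A shorter cluster lay nearer the low end in both libraries, at 21392895 to 21394900 with a score of 1.11 and at 21392683 to 21395003 with a score of 1.33. Replicate 1 had a further cluster that crosses the edge of the locus, at 21390288 to 21392755. Replicate 2 had 1 in the upper part, at 21423589 to 21425367.

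From the main cluster of 20A to the next one lay 16.8 kb without a cluster in either library, at 21406833 to 21423588. The high-coordinate edge was not visible as a step, with 0% of the last 10 kb inside covered in replicate 1 and 17.8% in replicate 2, and 0% of the 10 kb outside in both. On the low-coordinate side, 68.4% and 72.8% of the first 10 kb inside were covered, against 34.4% and 18.7% of the 10 kb outside. The clusters of the low flank lay at different positions in the 2 libraries and shared no base.

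**Figure D3:**
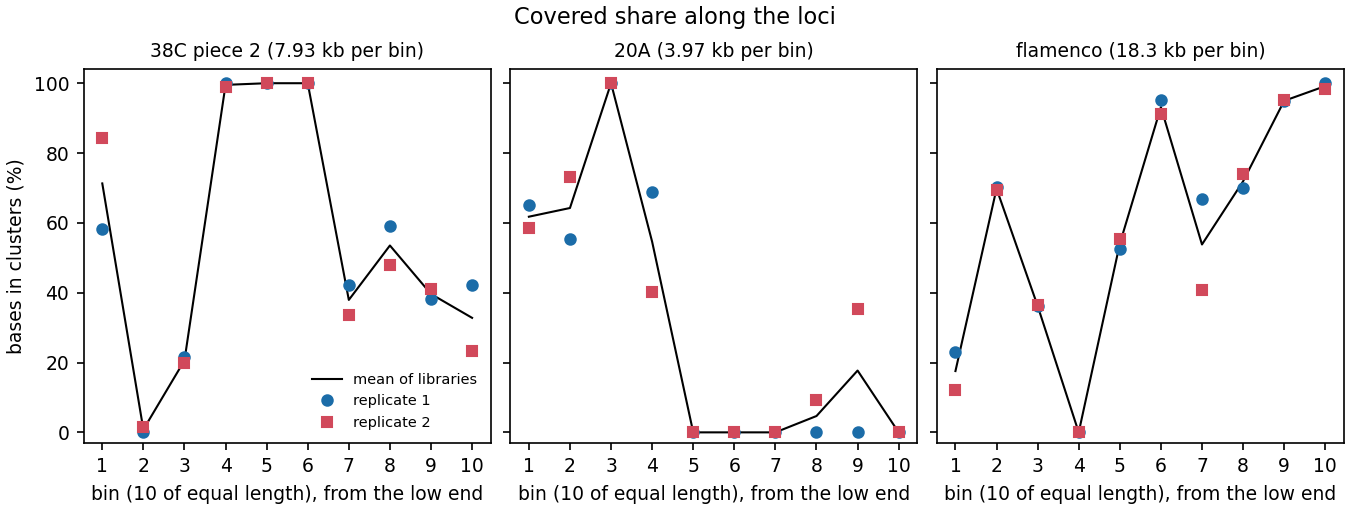
Percentage of bases in clusters (vertical axis) in each of 10 equal bins of the upper piece of 38C, of 20A and of flamenco, counted from the low-coordinate end; circles stand for replicate 1, squares for replicate 2 and the line for their mean. Coverage of 20A falls to 0 in the fifth bin, that of flamenco dips to 0 in the fourth and ends at 99.2%, and the upper piece of 38C is fully covered in the fifth and sixth.

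The pieces of 38C differed from each other. The lower piece, 12.1 kb long, lay wholly inside 1 cluster in every list. That cluster ran from 20099244 to 20121405 in replicate 1 (score 2.88) and from 20099485 to 20121297 in replicate 2 (score 2.91), which is 5011 bp and 4770 bp past the low-coordinate edge. Its ends therefore did not coincide with those of the locus, and 54.7% and 55.6% of its length lay inside. The stretch between the pieces, 31.9 kb long, was covered to 27.4% in replicate 1 and 26.6% in replicate 2. Both values lay above each outer flank, which had 18.5% and 14.7% on the low side and 0% and 3.16% on the high side. Of the 8.25 kb covered there in both libraries, 4.91 kb belonged to the same cluster, which goes on past the lower piece. A further 1.72 kb belonged to the cluster that runs into the upper piece.

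The upper piece of 38C was covered to 56.1% in replicate 1 and 55.1% in replicate 2. Its core was a block covered in both libraries from 20172585 to 20198524, over 25.9 kb, where the fifth and the sixth of 10 equal bins were covered to 100%. The cluster that holds it scored 2.98 in replicate 1 and 3.21 in replicate 2. On its low-coordinate side lay 14.0 kb without a cluster in either library, at 20156320 to 20170352. On its high-coordinate side coverage was broken up. There replicate 1 had 4 clusters, with scores from 0.944 to 1.27, and replicate 2 had 4, with scores from 0.949 to 1.22. None of these reached the median score of its list, 1.96 in replicate 1 and 1.99 in replicate 2. The last 4.52 kb of the locus held no cluster in either library. In the high flank replicate 2 had 1 cluster, 2149 bp beyond the edge, and replicate 1 had none.

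The score, which is the authors' own and whose scale is not stated, differed among the loci as well. In flamenco 13 of 16 clusters in replicate 1 and 11 of 15 in replicate 2 were at or above the median score of the whole list, which by definition 50% of all clusters are. In 38C these counts were 2 of 7 and 3 of 9, and in 20A 1 of 3 in each library. Scores on both arms were lower than in the whole list, so 50% is not the share of these arms. The median score was 1.05 in replicate 1 and 1.06 in replicate 2 on arm 2L, and 1.27 and 1.22 in 38C. On arm X it was 1.15 and 1.11, against 1.11 and 1.36 in 20A and 2.62 and 2.49 in flamenco. By bases the loci differed less. Clusters at or above the median score held 91.7% ± 3.31 of the covered bases of flamenco, 71.6% ± 0.967 of those of 38C and 72.5% ± 7.15 of those of 20A (SD, n = 2 each). On the whole of arm X they held 25.2% ± 0.133 and on 2L 56.4% ± 0.0059.

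In flamenco the scores were lower near the start of the locus and highest near its middle. The clusters that end within the first 20.9 kb of the locus had scores from 1.21 to 1.69 over both libraries. All were under the medians of the lists and above those of arm X. Those between them and the long stretch without clusters scored 2.04 and 2.67 in replicate 1 and 1.08, 2.30 and 2.49 in replicate 2. From 21577370 on, the scores ran from 1.77 to 4.33, and the clusters at the upper end scored 2.60 in replicate 1 and 2.50 and 2.59 in replicate 2. The cluster at 21581759 to 21586126 in replicate 1 scored 4.01 and its counterpart at 21581737 to 21587729 in replicate 2 scored 4.33. Each was the highest score on arm X in its list, among 581 and 549 clusters. The corresponding cluster of the series-wide list, with 4.17, was likewise the highest of the 817 there. The cluster at the upper end, of 38738 bp in replicate 1, ranked 2 by length on the arm. In replicate 2 the same stretch was divided into clusters of 20485 bp and 18047 bp, which ranked 2 and 3. In the flanks of flamenco 0 of 3 clusters in replicate 1 and 1 of 3 in replicate 2 were at or above the list's median, and the same counts held for the flanks of 20A. The counts are not independent, since the clusters of the high flank of 20A lie in the flank shared with flamenco. The 1 cluster at or above the median, at 21467950 to 21469594, is the same in both. Around 38C it was 1 of 2 in each library. These counts leave out clusters that cross the edge of a locus, whereas shares of bases include them. Clusters at or above the median held 81.9% ± 0.553 of the covered bases of the flanks of 38C (SD, n = 2). Of the covered flank bases, 5011 of 9242 bp in replicate 1 came from the cluster that holds the lower piece. In replicate 2 it was 4770 of 8916 bp.

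**Figure D4:**
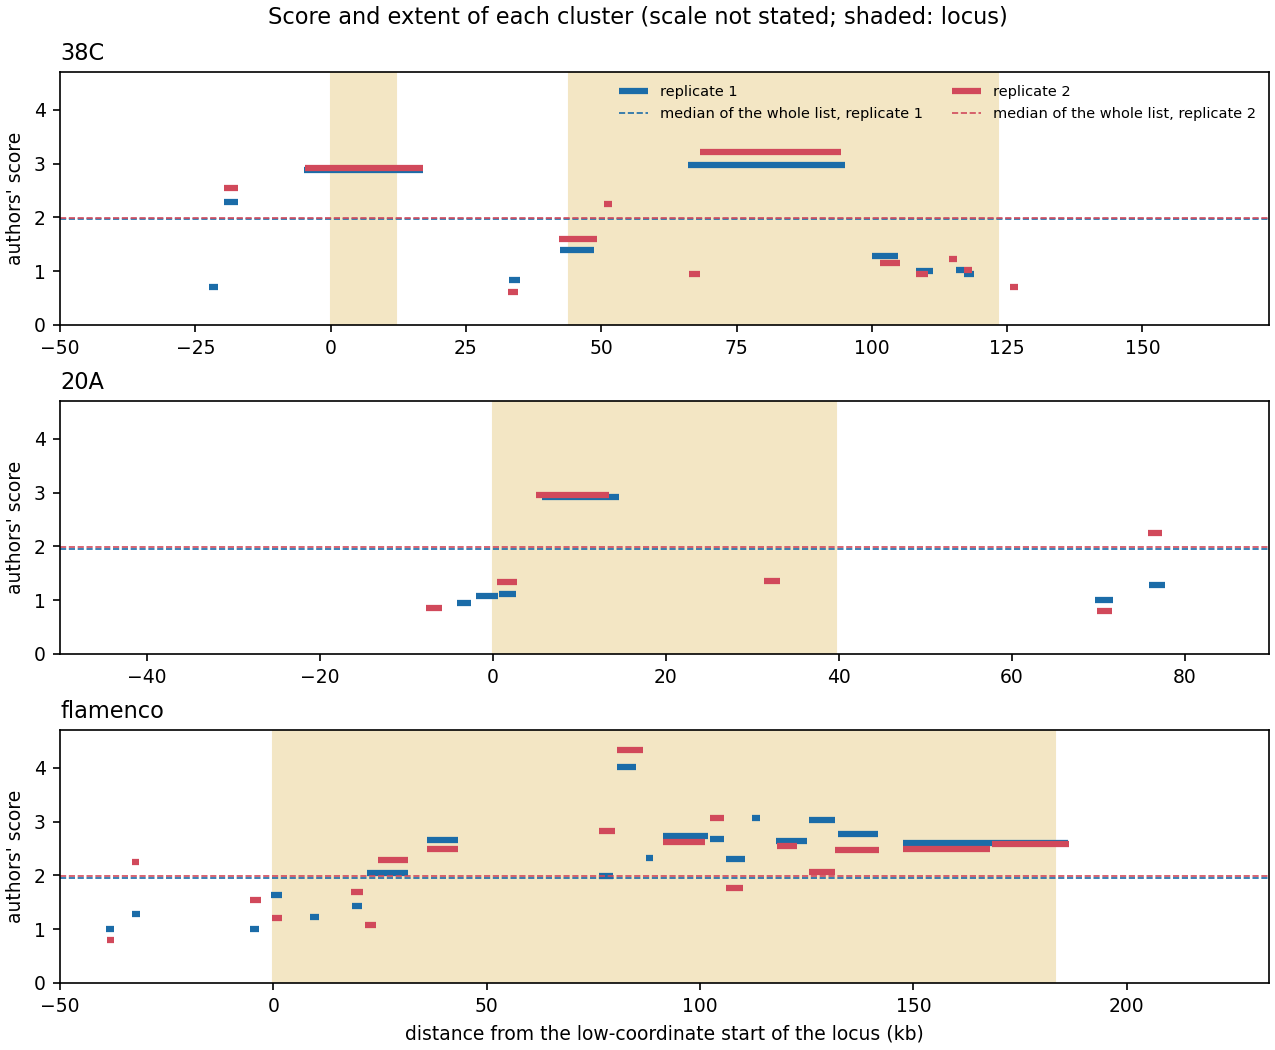
The authors' score (vertical axis, scale not stated) of each cluster, drawn as a bar from its start to its end in kb from the low-coordinate start of the locus; blue is replicate 1, red is replicate 2, dashed lines are the medians of the whole lists and shading marks the locus. The highest clusters lie within flamenco, at 4.01 and 4.33, and those of the upper end of 38C lie below the medians.

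The second question was how far the libraries placed clusters on the same bases of the loci. The Jaccard index, the bases covered in both divided by those covered in either, was 0.877 in flamenco, 0.857 in 38C and 0.693 in 20A. It was 0.784 over arm 2L and 0.680 over arm X. In flamenco 101 kb were covered in both libraries and 14.2 kb in 1 only, and in 20A 9.86 kb and 4.37 kb. Of the 7 clusters of replicate 1 in 38C all overlapped replicate 2, and of the 9 of replicate 2 all but 1 overlapped replicate 1. An overlap could be short, such as the 203 bp at 20219709 to 20219911. In flamenco 3 of 16 clusters of replicate 1 had no counterpart, at 21509702 to 21511774 (score 1.22), 21588456 to 21590084 (2.33) and 21613412 to 21615258 (3.07). All 15 of replicate 2 had one. The share of clusters with a counterpart over the whole arms is not given here, so these counts cannot be set against it.

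The series-wide list, labelled as the set of replicates and hence no independent sample, covered more of each locus. It covered 75.5% of 38C, 68.7% of flamenco and 46.4% of 20A, and 10.7%, 11.4% and 12.1% of their flanks. The excess over the flanks was 64.8 points for 38C, 57.3 for flamenco and 34.4 for 20A, so the order of the loci was the one found in the libraries. Of its covered bases, 80.3% were covered in both libraries in flamenco, 75.1% in 38C and 53.4% in 20A. Of its clusters in the loci, 5 overlapped neither library, 2 of 8 in 38C, 1 of 4 in 20A and 2 of 15 in flamenco. Over the whole series-wide list 794 of 3941 clusters overlapped neither, so the loci did not stand out by these few. The 5 in the loci lay in 38C at 20162059 to 20165351 and 20200228 to 20201791, and in 20A at 21413956 to 21415538. In flamenco they lay at 21507766 to 21508830 and at the place within its long stretch without clusters given above.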

How the data were processed

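Chromatin from wild-type embryos was precipitated with an H3K9me3 antibody in 2 libraries, each with an input library, whose values were not used here. Per the submitters' processing notes the aligner was Bowtie 0.12.7, and per the file headers the build is FlyBase release 5. The deposited lists hold the bounds of each cluster and a score above 0 given by the authors. The sources used here do not name the caller, its threshold, the scale of the score or the handling of reads with several alignments. The depth per library is unknown.

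Covered shares are the percentage of bases in clusters, computed in Python 3.11.15 with numpy 2.4.6 and pandas 2.3.3; windows of 1 kb start at the first base of each piece. Means ± SD are over the 2 libraries. Differences were tested by an exact two-sided permutation of signs over the libraries, whose smallest p is 0.5. The functions were tested on simulated data. Every cluster that overlaps a locus was considered, and the longest covered and uncovered stretches, 10 equal bins of flamenco, and as a later addition of 20A and of the upper piece of 38C, are given. The members and lists were chosen with earlier results of these data known. No release 5 sequence or annotation was used, so no sequence is printed and no gene was placed.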

Additional observations from a re-analysis of the deposited data

How the results depend on the processing

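Locus minus flanks kept its direction under all alternatives run: 36.6 to 64.8 points for 38C, 20.1 to 34.4 for 20A and 38.3 to 57.3 for flamenco. The largest falls came with clusters under the list's median score removed for 38C, which lowers shares by construction, and with flanks of 100 kb for 20A and flamenco, because flank coverage then reached 10.2% and 20.8%. These wider flanks left out the bases of the other locus, so the side between 20A and flamenco held 69.2 kb. Flamenco minus 20A ranged from 22.3 to 32.3 points and 38C minus 20A from 22.2 to 33.0. Only 38C minus flamenco reversed, to -10.1 points under the score limit; the share of 38C then fell to 44.1% and that of flamenco to 54.2%. With clusters within 1 kb joined it was 1.16 points ± 1.78, and the libraries differed in sign. Leaving out either library gave 52.1 to 52.7 points for 38C, 21.7 to 26.4 for 20A and 47.9 to 51.3 for flamenco; 38C minus flamenco was 1.09 points without replicate 2 and 3.79 without replicate 1. With 2 libraries no p can pass 0.05, so the p-values say nothing about stability. Apart from leaving out a library, which cannot move a mean of 2 by 1 SD, single shares moved by over 1 SD in 7 of 10 cases and window shares in 13 of 21. Using either flank alone was added after seeing the data. No paired analysis was possible because the input libraries, which carry the same replicate numbers, have no cluster list used here; locus and flanks were compared within each library. Depth is unknown and sets no stated limit.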

Other observations

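Clusters of the series-wide list can stand in neither library although their score is high in that list. Of 794 such clusters among the 3941 of the list, 244 (30.7%) reached the median score of that list and 176 had a score of at least 2. The one in flamenco at 21567266 to 21569270 (2005 bp) had a score of 2.41, and the one in 20A at 21413956 to 21415538 (1583 bp) a score of 2.10, against a list median of 1.34. On arm X 179 series-wide clusters overlapped neither library, with a median score of 0.660, and 19 of them were at or above the list's median and 11 had a score of at least 2. Both lengths exceed 1301 bp, the shortest in either per-library list, and the cause was not tested.

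Many clusters of a list share exactly the same score. In replicate 1 this holds for 1030 of 3395 clusters and in replicate 2 for 902 of 3404. The clusters of replicate 1 in flamenco that had no counterpart and a score above the median are among them: the score of 2.33 belongs to 20 clusters of that list and the score of 3.07 to 10. In replicate 2 the cluster of 38C at 20154788 to 20156319, also without a counterpart, shares its score of 2.25 with a cluster in the stretch between 20A and flamenco, at 21467950 to 21469594. Clusters with a counterpart were tied as well. In replicate 2 the score of 3.07 of the flamenco cluster at 21603454 to 21606752 belongs to 5 clusters. The score of 1.02 of the 38C cluster at 20221244 to 20222838 belongs to 11. How the score was computed is not given in the sources used here, and the source of these ties was not tested.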
